A study of Rattus norvegicus with 9 samples.

Results

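Mitochondrial ribosomal proteins were followed in the retina of diabetic and control rats. The members are all probes of the array whose gene symbol begins with Mrpl (large subunit) or Mrps (small subunit) and goes on with a number. There were 60 of them, with 1 probe each, among the 12978 genes that the array names and its 22226 probes, 38 for the large and 22 for the small subunit, and their genes lie on 17 chromosomes. Of the 60, 58 were detected well enough to be tested, 37 of the large and 21 of the small subunit. The rule rests on symbols and detection alone.

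Male Sprague-Dawley rats received streptozotocin (STZ, 65 mg/kg, intraperitoneal), a compound toxic to pancreatic beta cells, or its citrate vehicle, and their retinas were taken 3 months later. RatRef-12 BeadChips, on which each probe is carried by many beads, measured 5 control (Control) and 4 diabetic (STZ) retinas, 1 rat per array. Ages are not given in the labels, and only rats that stayed hyperglycemic were kept in the diabetic group. BeadChip 1 held Control 1 to 3, and BeadChip 2 held Control 4, Control 5 and STZ 1 to 4. Array medians of the raw intensities were 70 to 84.4 in controls and 76.9 to 87.9 in diabetic retinas, and 10843 to 11524 and 11207 to 11609 probes were detected. Pearson's r between arrays over the tested probes was 0.9784 to 0.9963. Values below are log2 normalized intensities, a fold is the difference of the group means on that scale, diabetic less control, and levels of different probes are not set against each other.

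Mitochondria translate the few proteins encoded by their own genome, all of them subunits of the oxidative phosphorylation complexes, on ribosomes of their own. The RNAs of these ribosomes come from mitochondrial DNA, whereas all of their proteins are encoded in the nucleus, made in the cytosol and imported. The small subunit binds and decodes the mRNA, and the large subunit joins the amino acids and lets the chain out at the inner membrane. Photoreceptors, the most numerous neurons of the rat retina, pack their inner segments with mitochondria.

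Promoters of these genes are shown first, because nuclear factors that bind such sequences are the known regulators of genes for mitochondrial proteins. RefSeq (GRCr8) windows of 250 bases before and 50 bases after the transcription start were matched to 49 of the 60 genes. On both strands 3 motifs were searched, the core of sites for ETS factors such as GABP (CGGAAG), the palindromic site of nuclear respiratory factor 1 (a run of 10 bases, in capitals in Mrpl32) and a form of the YY1 site, also of 10 bases. None of these 3 motifs contains another. The 80 bases before the start are printed for 5 of the 6 members that fell in the diabetic retina, and for Mrpl32, the member with the largest positive fold. Capitals mark a motif and the last base is next to the start.
Mrpl47: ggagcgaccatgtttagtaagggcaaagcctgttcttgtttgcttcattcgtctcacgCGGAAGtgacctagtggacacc
Mrpl58: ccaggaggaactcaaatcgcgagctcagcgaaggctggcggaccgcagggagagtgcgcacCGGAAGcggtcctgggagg
Mrps18a: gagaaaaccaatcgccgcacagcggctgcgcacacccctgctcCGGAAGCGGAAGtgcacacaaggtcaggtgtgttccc
Mrps30: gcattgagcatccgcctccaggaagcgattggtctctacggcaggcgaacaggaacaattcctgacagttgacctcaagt
Mrpl34: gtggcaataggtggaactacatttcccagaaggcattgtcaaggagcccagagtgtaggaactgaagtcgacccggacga
Mrpl32: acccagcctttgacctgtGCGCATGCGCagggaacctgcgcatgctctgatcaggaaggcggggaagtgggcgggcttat
These windows lie at chr2:117447362-117447441, minus strand (Mrpl47), chr10:101145262-101145341, plus strand (Mrpl58), chr9:22367381-22367460, minus strand (Mrps18a), chr2:52195905-52195984, minus strand (Mrps30), chr16:18186367-18186446, plus strand (Mrpl34) and chr17:55260571-55260650, plus strand (Mrpl32). They are upstream of the annotated transcript.

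The ETS core stood 22 bases before the start in Mrpl47 and 19 bases before it in Mrpl58, and Mrps18a held it 37 and 31 bases before the start. Mrpl32 held the nuclear respiratory factor 1 palindrome 62 bases before its start. The YY1 form of Mrps18a began at the first transcribed base and that of Mrps30 at base 19, both beyond the printed bases. Mrpl34 held none of the 3 motifs. Over all matched members, the ETS core was found in 24 of 49 genes (49%), against 18.2% of the 27457 genes with a RefSeq window and 16.6% of the 33469 windows. The nuclear respiratory factor 1 palindrome was found in 4 members (8.16%), against 0.954% of genes and 0.852% of windows, and the YY1 form in 6 (12.2%), against 1.17% of genes and 0.98% of windows. Genes for the proteins of the cytosolic ribosome held the ETS core about as often (48.9% of 47), the YY1 form in 6.38% and the palindrome in 0. A match is a description of the letters and not a bound site.

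No member rose and 6 of 58 fell in the diabetic retina (10.3%), 3 with large and 3 with small subunit symbols. Over all 10261 tested probes, 9.32% passed the same test, 4.84% of them higher and 4.47% lower. The test is limma's moderated test with Benjamini-Hochberg adjustment over all tested probes, at an adjusted p under 0.05. The falls were small, with the diabetic mean between 81.5% and 91.2% of the control mean. Both groups stood apart without overlap in each of the 6 members. Groups also did not overlap for Mrpl41, so that 7 of 58 members (12.1%) were without overlap, all lower, where 13% of all tested probes were without overlap (6.41% lower and 6.6% higher). Most of the 6 calls did not hold when the arrays were processed in other ways, with the values beside them.

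Mrpl47 is the counterpart of the bacterial protein uL29 and sits near the exit of the tunnel through which the new chain leaves the large subunit. Its level was 9.67, 9.54, 9.65, 9.70 and 9.52 in Control 1 to 5 and 9.25, 9.37, 9.39 and 9.27 in STZ 1 to 4. The highest diabetic retina lay below the lowest control. The level fell by 0.29 (SE 0.05), from 9.62 ± 0.08 (SD, n = 5) to 9.32 ± 0.07 (SD, n = 4), to 81.5% of control (limma adjusted p = 0.0111). Before normalization the intensities of this probe overlapped, at 692.41 to 1130.77 in controls and 733.57 to 902.02 in diabetic retinas. With the BeadChip as a block the fold was -0.29 with a limma adjusted p of 0.0878, and within BeadChip 2 it was -0.29 with 0.175.

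Mrps30 and Mrps18a carry small subunit symbols, but in structures of mammalian mitochondrial ribosomes both proteins are found in the large subunit. Mrps30 was at 10.68, 10.68, 10.82, 10.77 and 10.81 in controls and at 10.59, 10.54, 10.57 and 10.52 in diabetic retinas. It fell by 0.20 (SE 0.04), from 10.76 ± 0.07 (SD, n = 5) to 10.56 ± 0.03 (SD, n = 4) (limma adjusted p = 0.0172). The 4 diabetic retinas lay within a narrow band under every control. Mrps18a, 1 of 3 mammalian relatives of the bacterial protein S18, was at 11.58, 11.64, 11.65, 11.78 and 11.56 in controls and at 11.43, 11.50, 11.32 and 11.38 in diabetic retinas. It fell by 0.23 (SE 0.05), from 11.64 ± 0.09 to 11.41 ± 0.08 (limma adjusted p = 0.0312). The other relatives, Mrps18b and Mrps18c, had folds of -0.18 (adjusted p = 0.213) and -0.04 (adjusted p = 0.854). Counted by place in the particle, 5 of 39 large subunit members (12.8%) and 1 of 19 small subunit members (5.26%) fell, where 4.47% of all tested probes were lower, and the difference between the subunits was not tested.

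Mrpl58, also known as Ict1, is a peptidyl-tRNA hydrolase that became part of the mammalian large subunit and can free stalled ribosomes. Its level was 9.33, 9.24, 9.39, 9.52 and 9.16 in controls and 9.13, 9.01, 9.04 and 9.04 in diabetic retinas. Control 5 and STZ 1 differed by little, and the other diabetic retinas lay further below. It fell by 0.28 (SE 0.07), to 82.6% of control (limma adjusted p = 0.0451). Mrpl34, a counterpart of the bacterial protein L34, was at 10.08, 10.00, 9.95, 9.93 and 9.97 in controls and at 9.89, 9.87, 9.82 and 9.83 in diabetic retinas. It had the smallest fall of the 6, by 0.13 (SE 0.03), to 91.2% of control (limma adjusted p = 0.0486).

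Mrps24, the counterpart of the bacterial protein uS3 at the site where mRNA enters, was the only one of the 6 that belongs to the small subunit by place. It was at 11.56, 11.56, 11.43, 11.54 and 11.46 in controls and at 11.41, 11.35, 11.19 and 11.33 in diabetic retinas. STZ 3 was the lowest, and STZ 1 lay just under Control 3. It fell by 0.19 (SE 0.05), to 87.7% of control (limma adjusted p = 0.0487). Mrpl41, a large subunit protein with no bacterial counterpart, was at 9.77 to 9.88 in controls and at 9.59 to 9.75 in diabetic retinas, with a fold of -0.15 (SE 0.04) that did not pass (limma adjusted p = 0.0554). Mrpl41 was picked out after its values were seen.

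**Figure D1:**
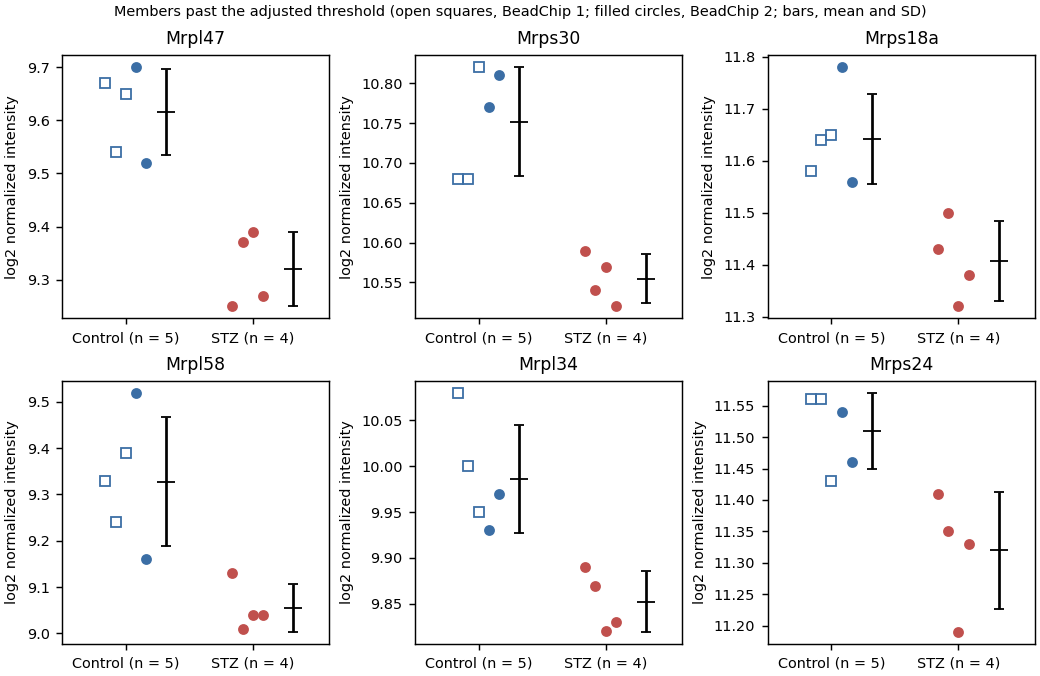
Log2 normalized intensity (vertical axes, each with its own range) of the 6 members that passed the adjusted threshold, in 5 Control and 4 STZ retinas, with open squares for BeadChip 1, filled circles for BeadChip 2 and bars for the mean and SD. In each panel the 4 diabetic retinas lie below all 5 controls, by little in Mrpl58 and Mrps24.

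Of these 6, Mrpl47 and Mrps30 passed in 9 of 9 refits that left out 1 retina, Mrps18a in 3, Mrpl58 and Mrps24 in 1 each, and Mrpl34 in 0. With the BeadChip as a block 0 of 58 members passed, and of all tested probes 126 were higher and 53 lower, in place of 497 and 459. With scaling to the median in place of quantile normalization 0 members passed as well, with 67 of all tested probes higher and 10 lower. On the intensities as normalized by the authors Mrpl47 alone passed, although 4.04% of all tested probes were then lower, a share close to the 4.47% above. The folds of the 6 kept their sign in each of the 12 alternatives and 9 refits, at -0.32 to -0.25 for Mrpl47 and -0.24 to -0.18 for Mrps30.

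Other members with the lowest folds did not pass. Mrps27, an RNA-binding protein of the small subunit, had the lowest fold of all, -0.30 (SE 0.14, limma adjusted p = 0.23). It was at 9.90, 10.03, 9.60, 9.94 and 9.55 in controls and at 9.40, 9.86, 9.28 and 9.48 in diabetic retinas. STZ 2 lay among the controls, and the other diabetic retinas lay below them. Mrpl55, in the central protuberance of the large subunit, had a fold of -0.19 (SE 0.08, limma adjusted p = 0.189), which was -0.02 within BeadChip 2. Its controls were at 9.82 to 9.94 on BeadChip 1 and at 9.54 and 9.62 on BeadChip 2, and the diabetic retinas at 9.49 to 9.65, so they stood apart from the former only. Mrpl42 had a fold of -0.18 (SE 0.17, limma adjusted p = 0.567) and the widest interval, with values from 9.12 in STZ 4 to 10.09 in Control 1. Its fold was -0.04 without STZ 4 and also -0.04 within BeadChip 2, and -0.08 without Control 1.

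The highest folds were those of 4 large subunit members, none of which passed. Mrpl32, a protein that is cleaved by a mitochondrial inner membrane protease before it joins the ribosome, was at 8.66, 8.29, 8.59, 8.48 and 8.42 in controls and at 8.92, 8.60, 8.87 and 8.59 in diabetic retinas. STZ 1 and STZ 3 lay above all controls, and STZ 2 and STZ 4 lay within them. The fold was 0.26 (SE 0.10, limma adjusted p = 0.136). Mrpl43 was at 10.43, 10.32, 10.25, 10.51 and 10.50 in controls and at 10.89, 10.33, 10.80 and 10.57 in diabetic retinas (fold 0.25, limma adjusted p = 0.218). Without STZ 2 its fold was 0.35, which passed (limma adjusted p = 0.0457), without STZ 1 it was 0.17 (adjusted p = 0.4), and with the BeadChip as a block it was 0.14 (adjusted p = 0.689). Mrpl17, another protein at the exit of the tunnel, was at 9.55 to 10.02 in controls and at 10.44, 9.66, 10.13 and 9.95 in diabetic retinas (fold 0.24, limma adjusted p = 0.389). Its fold was 0.11 without STZ 1 and 0.37 without STZ 2.

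Mrpl52 had a fold of 0.18 (limma adjusted p = 0.503), with 11.77, 11.06, 11.57 and 11.38 in diabetic retinas. That fold was 0.07 without STZ 1, 0.31 without STZ 2, 0.11 without Control 5 and 0.30 with the BeadChip as a block. In these 4 members STZ 1 had the highest and STZ 3 the next highest level of the diabetic retinas, and STZ 2 or STZ 4 the lowest. In the small subunit the highest folds were those of Mrps7, a counterpart of the bacterial protein S7 (0.09, SE 0.05, limma adjusted p = 0.365), and Mrps23 (0.05, SE 0.07, limma adjusted p = 0.743).

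**Figure D2:**
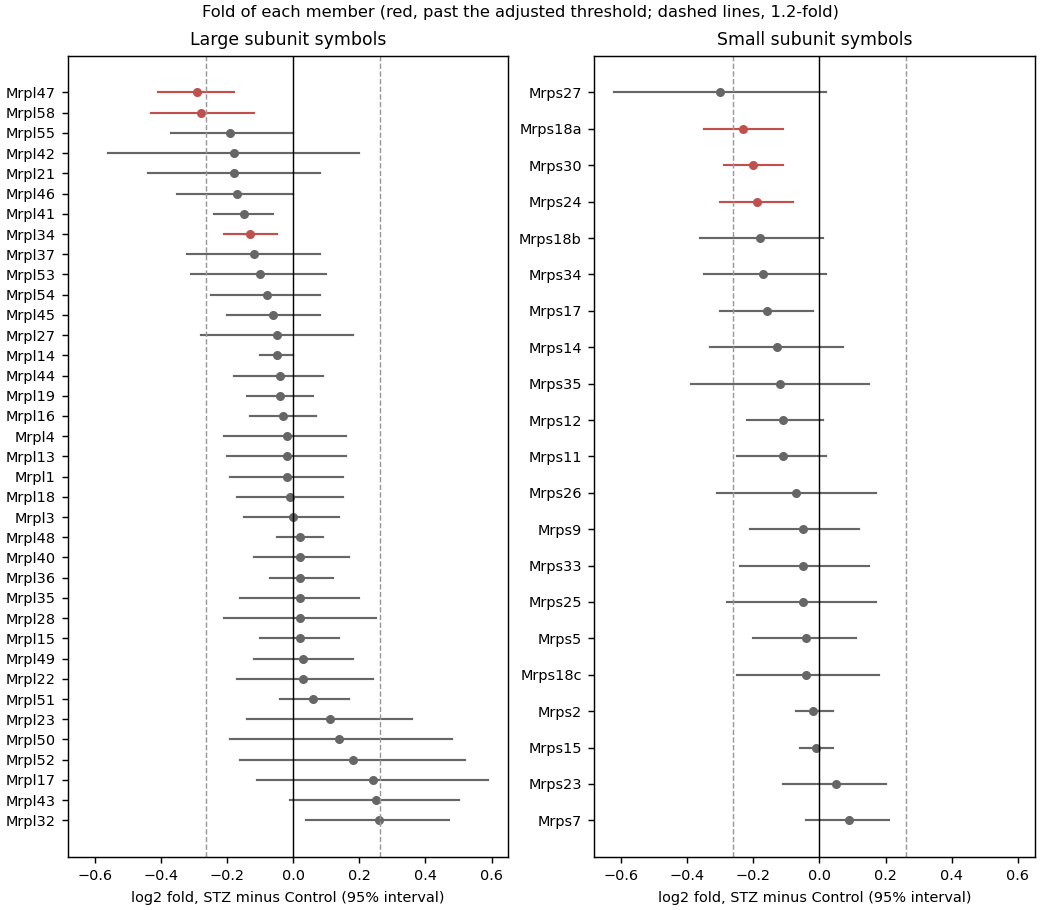
Log2 fold, STZ minus Control, of each of 58 members (points) with its 95% interval (bars), for large subunit symbols (left) and small subunit symbols (right), red where the adjusted threshold was passed and dashed at 1.2-fold. The 6 red points lie between -0.29 and -0.13, and the large subunit also has positive folds up to 0.26, where the highest of the small subunit is 0.09.

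The 2 subunits differed in how their folds were spread, as a description with no test. In the small subunit 19 of 21 folds were below 0 (90.5%), and in the large subunit 22 of 37 (59.5%), where 57.8% of all tested probes had a fold below 0. The median fold was -0.11 in the small and -0.02 in the large subunit, and -0.01 over all tested probes. Median scaling turned the large subunit median to 0.01 and left that of the small subunit at -0.10, and within BeadChip 2 there were 15 of 21 small subunit folds below 0, with a median of -0.08. Without Control 2 the small subunit median was -0.06, with 17 of 21 folds below 0, and without Control 4 it was -0.08. Without STZ 3 it was -0.12, with 16 of 21 folds below 0. Counted by place, the small subunit had 17 of 19 folds below 0 and a median of -0.07. In 15 of 58 members (25.9%) all 4 diabetic retinas lay below the control mean, and in 2 (3.45%) all lay above it, against 23.9% and 16.6% of all tested probes.

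By retina, the mean deviation of the small subunit members from their control means was -0.02, 0.06, -0.02, 0.03 and -0.05 in Control 1 to 5 and -0.10, -0.03, -0.13 and -0.13 in STZ 1 to 4. STZ 1, 3 and 4 lay below every control, and STZ 2 lay within the controls. For the large subunit the same means were 0.02, 0.01, 0.03, 0.01 and -0.07 in controls and 0.05, -0.05, -0.01 and -0.07 in diabetic retinas. The groups overlapped there, with Control 5 as low as STZ 4. Control 5 had 44 of its 58 members below the control mean, more than any diabetic retina (30 to 41).

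**Figure D3:**
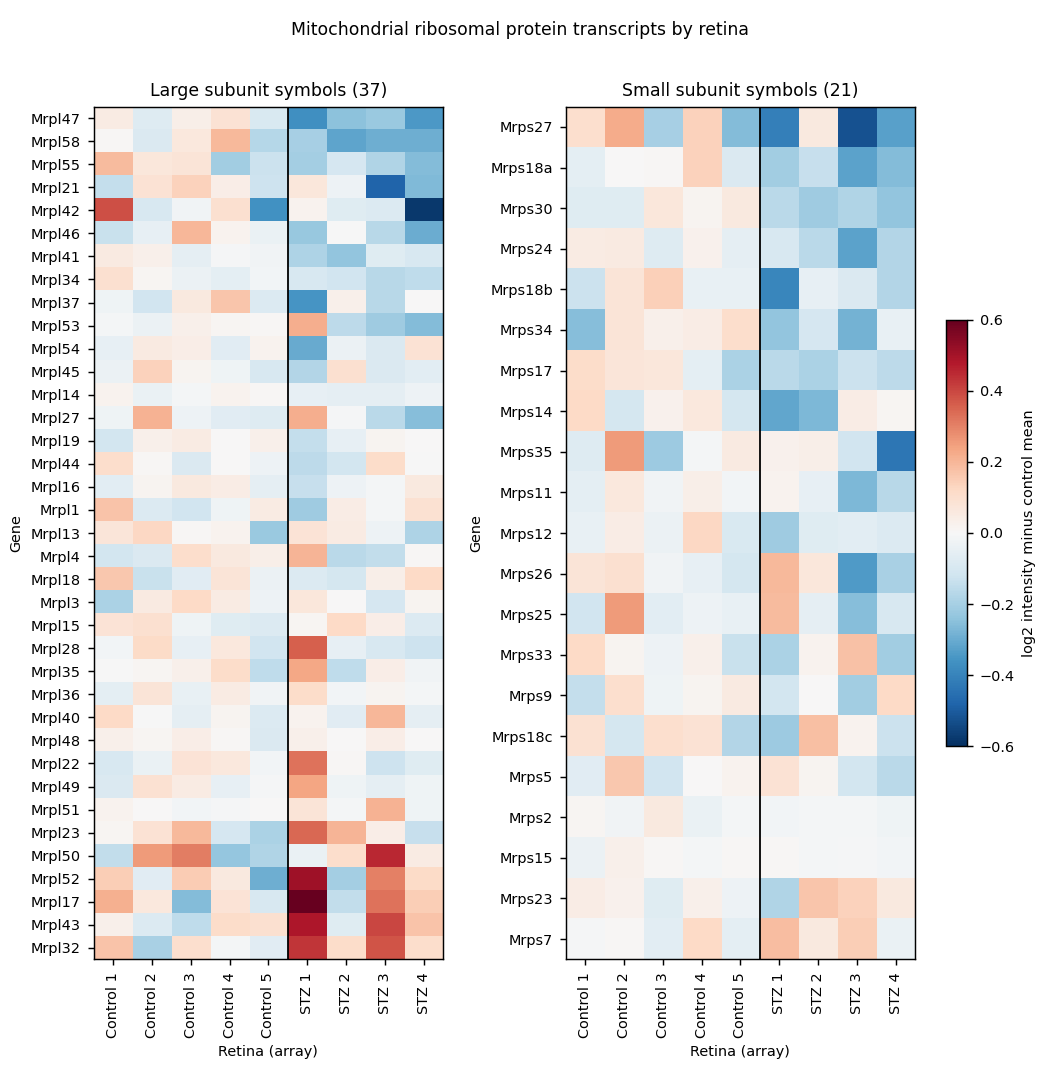
Log2 intensity minus the control mean (color) of 37 large and 21 small subunit members (rows, lowest fold at the top) in 9 retinas (columns), with the black line between Control and STZ. Small subunit rows are mostly blue in STZ 1, 3 and 4, and Mrpl32, Mrpl43, Mrpl17 and Mrpl52 are red in STZ 1 and STZ 3. In STZ 2 Mrpl32 is a paler red, and Mrpl43, Mrpl17 and Mrpl52 lie below the control mean (blue).

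Counterparts in the bacterial ribosome were listed for 32 of the tested members and not for 26. Mrps18a and Mrps18b, although relatives of the bacterial protein S18, were counted among the 26. Of the 32, 3 fell (9.38%), with a median fold of -0.03, and of the 26, 3 fell (11.5%), with a median of -0.08. Of all tested probes 4.47% were lower. Among 5 proteins around the exit of the tunnel, Mrpl47 fell and the median fold was 0.03. Among 6 proteins of the central protuberance 0 passed, 1 had an unadjusted limma p under 0.05, and the median was -0.03.

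Precision was enough to bound many members, as it was for many of all tested probes. For 32 of 58 the 95% interval of the fold lay wholly within 1.2-fold in either direction (0.26 on the log2 scale), 22 in the large and 10 in the small subunit. The same held for 6161 of the 10261 tested probes. The interval reached a 1.2-fold lower level in 20 and a 1.2-fold higher level in 6. The median half-width was 0.16, and the lowest, 0.05 for Mrpl14, was that of a faint probe at 7.11 to 7.19. Near this floor the scale compresses differences, also for Mrps2 (7.14 and 7.12 in the group means) and Mrps15 (7.09 and 7.08). The narrow intervals of Mrpl14, Mrps2 and Mrps15 are counted among the 32 but are no bound on their transcripts. Mrpl51, Mrpl19 and Mrpl18, also counted among the 32, are faint as well (control means 7.33, 7.65 and 7.70), and their intervals share this limit. Replicates of the members varied more than those of all tested probes, with a median SD of 0.09 in controls and 0.13 in diabetic retinas, against 0.07 and 0.09. The tested probes include faint ones, whose SDs the floor also compresses, and the members were not compared with probes of like intensity.

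The 2 members left out were at background. Mrpl30 had a detection p under 0.05 in 0 of 5 controls and 1 of 4 diabetic retinas, and Mrps31 in 0 of 9 retinas. Mrps15 was detected in 4 of 5 controls and 4 of 4 diabetic retinas, and the other 57 in all 9.

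At the thresholds of the study's methods (unadjusted p under 0.05 and a fold of at least 1.2), applied to limma's p, 2 members were lower (Mrpl47 and Mrpl58) and 0 higher, where 4.45% of all tested probes were lower and 5.58% higher. Without the fold, 9 members were lower and 1, Mrpl32, higher at an unadjusted p under 0.05, against 14.5% and 10.8% of all tested probes.

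Other genes of the same pathway were taken from lists of proteins that build, serve or regulate the mitochondrial ribosome. Among its proteins with other symbols 0 of 3 passed. Of these, Chchd1 of the small subunit had a fold of -0.12 (limma adjusted p = 0.0729), Gadd45gip1 -0.13 (adjusted p = 0.613) and Aurkaip1 0.06 (adjusted p = 0.678). At an unadjusted p under 0.05, 1 of the 3 was lower.

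Among 14 factors of assembly and rRNA modification 2 fell (14.3%) and 0 rose, with a median fold of -0.04. Of all tested probes 4.47% were lower. Malsu1, which holds the large subunit back from joining the small one too early, was at 10.89, 10.78, 10.91, 10.90 and 10.79 in controls and at 10.63, 10.66, 10.68 and 10.77 in diabetic retinas, without overlap. It fell by 0.17 (SE 0.04, limma adjusted p = 0.043). Fastkd2, an RNA-binding protein of mitochondrial RNA granules, fell by 0.21 (SE 0.06, limma adjusted p = 0.0489), with an overlap of 7.97 in Control 5 and 8.01 in STZ 2. With the BeadChip as a block neither passed (limma adjusted p = 0.216 for Malsu1 and 0.296 for Fastkd2), and of 9 refits without 1 retina Malsu1 passed in 2 (without Control 2 or STZ 4) and Fastkd2 in 1 (without STZ 2). Nsun4, an rRNA methyltransferase, had a fold of -0.18 (limma adjusted p = 0.15).

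Among 8 translation factors 1 rose (12.5%) and 0 fell, where 4.84% of all tested probes were higher and 4.47% lower. Mtfmt, which formylates the initiator methionyl-tRNA, was at 7.88, 7.78, 7.79, 7.87 and 7.96 in controls and at 8.03, 8.11, 8.33 and 8.12 in diabetic retinas. All 4 diabetic retinas lay above all 5 controls, and it rose by 0.29 (SE 0.06, limma adjusted p = 0.0264). It did not pass with the BeadChip as a block (fold 0.24, limma adjusted p = 0.197), nor without Control 1, 2, 3 or 4 (adjusted p = 0.0515, 0.0557, 0.0642 and 0.0634). Guf1, an elongation factor, and Mrrf, the ribosome recycling factor, had folds of -0.18 (limma adjusted p = 0.23) and -0.09 (adjusted p = 0.494). The elongation factor Tufm, which brings aminoacyl-tRNA to the ribosome, had a fold of -0.02 (SE 0.05, limma adjusted p = 0.873), and was named after its values were seen. Among 8 mitochondrial aminoacyl-tRNA synthetases 1 fell, Yars2 for tyrosine, by 0.28 (SE 0.07, limma adjusted p = 0.0483), without overlap between groups. With the BeadChip as a block its adjusted p was 0.27 (limma), and it passed in 2 of 9 refits without 1 retina (Control 5 or STZ 2). Sars2 for serine and Tars2 for threonine had folds of -0.06 (limma adjusted p = 0.278) and -0.08 (adjusted p = 0.406). Both probes are faint (control means 7.26 and 7.55), near the floor that compresses differences. Without background correction their folds were -0.22 and -0.18.

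Among 12 regulators of mitochondrial transcription and biogenesis 2 fell and 0 rose, and 11 of 12 folds were below 0, with a median of -0.06, where 4.47% of all tested probes were lower and 57.8% of their folds were below 0. Ppargc1a, the coactivator PGC-1alpha that raises the expression of nuclear genes for mitochondria, was at 7.74, 7.69, 7.73, 7.84 and 7.76 in controls and at 7.43, 7.54, 7.45 and 7.34 in diabetic retinas. It fell by 0.31 (SE 0.04, limma adjusted p = 0.00638), without overlap, and passed in 9 of 12 alternatives and in 9 of 9 refits without 1 retina. With the BeadChip as a block its fold was -0.36 (limma adjusted p = 0.0323), and within BeadChip 2 the adjusted p was 0.102. The probe is faint, near the floor that compresses differences, and without background correction its fold was -0.54.

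Mterf1, which binds mitochondrial DNA behind the rRNA genes, fell by 0.17 (SE 0.03, limma adjusted p = 0.00954), from 11.92 ± 0.04 (SD, n = 5) to 11.75 ± 0.02 (SD, n = 4). It passed in 9 of 9 refits without 1 retina but in only 6 of 12 alternatives. With the BeadChip as a block it passed (limma adjusted p = 0.0343). Within BeadChip 2 (adjusted p = 0.0935) and on the intensities that the authors normalized (adjusted p = 0.0939) it did not. Tefm, an elongation factor of mitochondrial transcription, had a fold of -0.11 that did not pass (limma adjusted p = 0.0705), although its groups did not overlap. The transcript levels of the factors whose motifs were searched did not pass. Nrf1 had a fold of -0.03 (limma adjusted p = 0.705), Gabpa, the DNA-binding subunit of GABP, -0.02 (adjusted p = 0.74) and Yy1 -0.04 (adjusted p = 0.633). The probes of these 3 are faint, with control means of 7.44, 7.49 and 7.78, near the floor that compresses differences. All 3 genes were named after their values were seen.

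Proteins of the cytosolic ribosome, which makes the mitochondrial ribosomal proteins themselves, are given for comparison. Of 55 tested probes 11 rose, 0 fell and the others did not pass, with a median fold of 0.14 and 18.2% of folds below 0, where 4.84% of all tested probes were higher and 57.8% of their folds were below 0. By retina, their mean deviation was -0.06 to 0.04 in controls and 0.10, 0.22, 0.21 and 0.09 in diabetic retinas, all above the controls. In these means 2 probes varied widely among retinas. Rps9 was at 7.54, 12.37, 11.6 and 7.36 in STZ 1 to 4, and Rpl30 at 8.71, 11.9, 9.2 and 11.91. Their control SDs were 1.76 and 1.73, so the order of the diabetic retinas is not read from these means. The median stayed between 0.13 and 0.20 under the alternatives, with 0 lower in each, and the count of rises was 0 under median scaling and within BeadChip 2, 3 with the BeadChip as a block and 2 with the replicate number as a block. These genes have many processed pseudogenes that probes may share, and whether this list differed from the mitochondrial one was not tested.

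**Figure D4:**
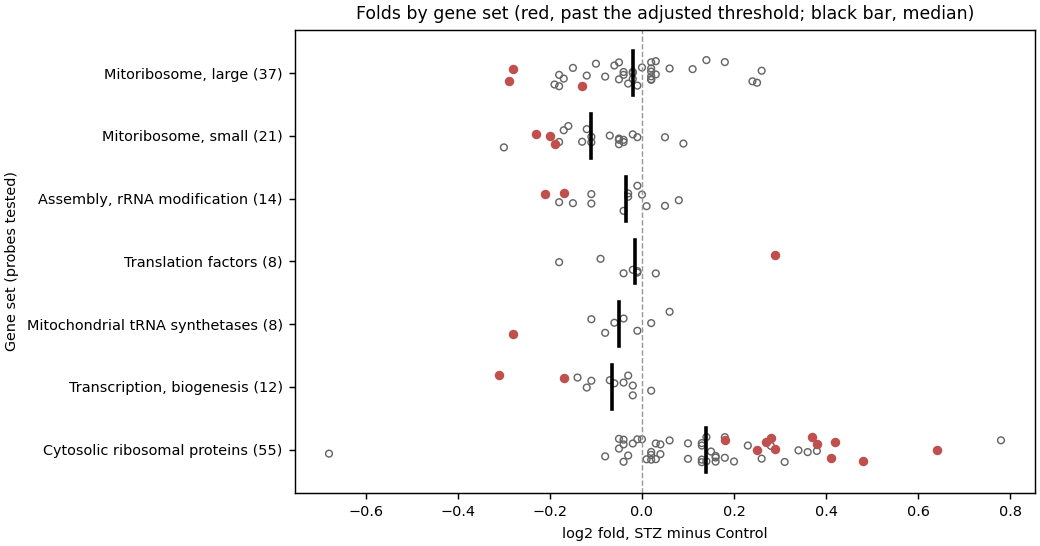
Log2 fold, STZ minus Control (horizontal axis), of each tested probe in 7 gene sets (rows, number tested in parentheses), red where the adjusted threshold was passed, with a black bar at the median. The median is -0.02 for large and -0.11 for small subunit symbols of the mitochondrial ribosome (-0.07 for the small subunit by place) and 0.14 for cytosolic ribosomal proteins.

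Several members share their promoter region with a neighbor read in the opposite direction. Within 1000 bases such a start was found for 17 of 49 members (34.7%), against 11.3% of the 27457 genes with a window. Mrpl47 and Ndufb5, a subunit of respiratory complex I, start 244 bases apart. Ndufb5 was at 12.72, 12.50, 12.57, 12.59 and 12.55 in controls and at 12.34, 12.37, 12.28 and 12.50 in diabetic retinas, and it fell by 0.21 (SE 0.06, limma adjusted p = 0.047) beside the fall of Mrpl47 by 0.29. STZ 4 and the lowest control, Control 2, were level to 2 decimals. Ndufb5 did not pass with the BeadChip as a block (limma adjusted p = 0.236) or on the intensities that the authors normalized (adjusted p = 0.0816), and of 9 refits without 1 retina it passed in 1, without STZ 4.

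Mrpl46 and Mrps11, both members, start 234 bases apart and had folds of -0.17 (limma adjusted p = 0.203) and -0.11 (adjusted p = 0.263). Mrpl32 and the proteasome subunit gene Psma2 start 210 bases apart, with folds of 0.26 and 0.10 (limma adjusted p = 0.136 and 0.418). Mrps18b and Ppp1r10 start 588 bases apart and had folds of opposite sign, -0.18 and 0.12 (limma adjusted p = 0.213 and 0.344). Of the 17 neighbors 10 had a tested probe.

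Some markers of retinal cell types, and most of those of the lens, differed between the groups as well. In whole retina fewer cells of a type and less RNA per cell cannot be told apart. The counts below stand beside 4.47% of all tested probes lower and 4.84% higher. Of 5 tested rod markers 1 fell, Nrl, a transcription factor of rods, by 0.59 (limma adjusted p = 0.0163), and the mean level of the 5 was 12.05 to 12.16 in controls and 11.78 to 11.93 in diabetic retinas. Of 4 markers of bipolar and ganglion cells 3 fell, the ganglion cell markers Nefm, Nefl and Thy1 (mean level of the 4, 8.89 to 9.07 and 8.65 to 8.72). Prkca, the only bipolar cell marker tested, had a fold of -0.21 that did not pass (limma adjusted p = 0.235). Of 4 markers of Müller glia, the main glia of the retina, 1 rose, Vim, while Rlbp1 had a fold of -0.29 (limma adjusted p = 0.182), Slc1a3 0.28 (adjusted p = 0.107) and Aqp4, at the floor, 0.03 (mean level of the 4, 10.69 to 10.77 and 10.88 to 10.92). Of the lens markers 5 of 6 rose (mean level 9.07 to 10.55 and 12.47 to 13.36). The lens is not part of the retina, and the source of this RNA was not tested. Of the markers of pigment epithelium (3), blood (2), microglia (2), vessels (2) and muscle (3), 0 passed, with 1 of the microglial and 1 of the vascular markers higher at an unadjusted limma p under 0.05. Their part in the folds of the members was not tested.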

How the data were processed

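RNA of 5 control and 4 diabetic rat retinas was hybridized to RatRef-12 BeadChips, and 1 diabetic array had been removed by the authors. The authors deposited bead averages from GenomeStudio 1.0.6 as linear intensities without normalization, each with its detection p-value. The authors also deposited quantile-normalized intensities of these arrays, which served as an alternative.

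In limma 3.58.1 (R 4.3.3), background was corrected by normexp (negative controls inferred from the detection p, offset 16), and arrays were quantile normalized and taken to log2. For a test, a probe had to be detected (p under 0.05) in every retina of either group, which left 10261. Group means were compared with lmFit and eBayes, two-sided, with Benjamini-Hochberg adjustment over all tested probes, and the fit was tested on simulated data. Groups come from the sample titles, and precision is limited by the small number of arrays. Of 22226 probes 13192 carry 1 gene symbol and 9034 none, and all 60 member gene identifiers were found in RefSeq (GRCr8). Motifs and figures used Python 3.11.15, pandas 2.3.3 and matplotlib 3.10.9.

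The members and gene lists were chosen with earlier results of these data known. Named members are those past the adjusted threshold, the 4 highest and 4 lowest folds of each subunit with that sign, and those left untested, and named companions are the 3 lowest adjusted p-values of each list. Mrps18b, Mrps18c, Mrpl14, Mrpl18, Mrpl19, Mrpl51, Mrps2, Mrpl46, Mrps11 and the genes beside promoters were chosen after their values were seen, as were those marked in the text.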

Additional observations from a re-analysis of the deposited data

How the results depend on the processing

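The number of members past the adjusted threshold depended on the processing. In the large subunit it was 1, in place of 3, with the authors' processed values, without background correction, without the detection filter, with an intensity trend and robust variance, and by the methods' t-test, and 0 with median scaling, with the BeadChip as a block, within BeadChip 2 and with the replicate number as a block. In the small subunit it was 1, in place of 3, without the detection filter and by the methods' t-test, and 0 in the others of these. Leaving out 1 retina gave 1 to 2 in the large and 1 to 3 in the small subunit. An offset of 50 kept 6 of 6 members, and detection p under 0.01 or detection on all 9 arrays 5. Over both subunits, 2 members remained without Control 2, 3 or 4 and without STZ 3 or 4, namely Mrpl47 and Mrps30. Without Control 1 there were 3. Without Control 5 there were 5, of which 4 were among the 6 and Mrps17 was not. Without STZ 1 there were 4, of which 3 were among the 6 and Mrpl53 was not. Without STZ 2 there were 3 lower and 1 higher, Mrpl43, which was not among the 6.

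At the methods' thresholds the count of 2 became 0 with the authors' processed values, no background correction and median scaling, 1 with an offset of 50, and 1 to 6 without 1 retina (1 without Control 4, 6 without STZ 2). The 6 companion genes became 3 with the authors' processed values, without background correction and with the trend, 2 without the detection filter, with the BeadChip block and by the methods' t-test, 0 with median scaling, within BeadChip 2 and with the replicate block, and 2 to 5 without 1 retina. The small subunit median of -0.11 ranged from -0.12 to -0.06 (without Control 2) and that of the large subunit, -0.02, from -0.03 to 0.01 (median scaling). Aurkaip1, which did not pass, had a fold of 0.06 that went from -0.03 (without STZ 1) to 0.10 (without STZ 3) in the refits without 1 retina, and to 0.14 with median scaling. The cause of these shifts was not tested.

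The replicate numbers were not taken to pair the samples. The deviations of same-numbered retinas had correlations of -0.08, 0.16, -0.07 and 0.15, and Control 5 has no partner. These few values, with no reference set beside them, cannot exclude a pairing. With the number as a block, 246 of all tested probes passed in place of 956, and the median folds were -0.02 and -0.11. BeadChip 1 held controls only, so the block rests on Control 4 and Control 5.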
